A study of Mus musculus with 12 samples.

Results

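Glycolysis and the hypoxia response were followed in dermal fibroblasts through 35 genes, picked by name for glucose import, glycolytic enzymes, lactate and pyruvate handling, the hypoxia-inducible factor (HIF) subunits and oxygen sensors, and hypoxia-response targets. A gene was measured where the array had a probe set, a group of short probes for 1 transcript, that was paired with exactly 1 gene symbol. Where a gene had several such probe sets, the one with the highest mean over all arrays was used. This left 32 of the 35 genes among 18193 genes tested. Gpi1, which encodes glucose-6-phosphate isomerase, Gapdh, which encodes glyceraldehyde-3-phosphate dehydrogenase, and Eno1, which encodes the main enolase, had no such probe set. Gapdh was present through the control probe sets of the array, described further on.

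RNA was measured on 12 Affymetrix mouse expression arrays in 3 groups of 4. All cells came from back skin of male mice aged 7 weeks that carried a PDGFRα-H2B-eGFP allele, a fluorescent histone reporter for cells that express the PDGF receptor alpha, and GFP-positive cells were sorted by flow cytometry from dissociated dermis. Normal fibroblasts came from wild-type mice, inflamed fibroblasts from InvEE mice, and tumour-associated fibroblasts from papilloma-associated InvEE skin. The InvEE transgene places constitutively active MEK1 behind the involucrin promoter, so it is driven in suprabasal keratinocytes and not in the sorted cells. RNA was amplified once with a NuGEN Pico kit before labelling. Whether each replicate was a separate animal is not stated, and the p-values therefore describe only how far these samples spread, which may be technical.

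Glycolysis splits glucose into pyruvate through a chain of cytosolic enzymes that starts with hexokinase. Pyruvate is either reduced to lactate and exported with a proton through monocarboxylate transporters, or burned in mitochondria once pyruvate dehydrogenase, which the Pdk kinases hold in check, has converted it. When oxygen is low, prolyl hydroxylases of the Egln family stop marking HIF alpha subunits for destruction, and the HIF dimer binds short hypoxia response elements and raises genes for glucose import, glycolysis and vessel growth. In dermal fibroblasts the same genes are known to answer to growth factors and cytokines, and fibroblast-derived lactate can feed neighbouring epithelial cells.

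HIF dimers recognise the letters ACGTG or GCGTG. Both were searched on both strands in RefSeq promoter windows of mouse genome build GRCm38.p6, which run from 250 bases before to 50 bases after a gene's start. A CACGTG holds ACGTG on both strands and counts as 2 matches. The 4 windows shown belong to the genes that passed the test between tumour-associated and normal fibroblasts and had a window in the table, which holds none for Epas1 or Slc2a3. They are printed 5′ to 3′ on the gene's strand, with matches in capitals.

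Bnip3: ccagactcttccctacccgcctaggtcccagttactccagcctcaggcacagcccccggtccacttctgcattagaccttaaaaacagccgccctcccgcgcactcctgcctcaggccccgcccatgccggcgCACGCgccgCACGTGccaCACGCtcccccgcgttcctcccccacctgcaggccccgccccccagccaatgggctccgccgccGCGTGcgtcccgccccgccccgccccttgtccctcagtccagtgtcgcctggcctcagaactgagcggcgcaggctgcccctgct

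Slc16a1: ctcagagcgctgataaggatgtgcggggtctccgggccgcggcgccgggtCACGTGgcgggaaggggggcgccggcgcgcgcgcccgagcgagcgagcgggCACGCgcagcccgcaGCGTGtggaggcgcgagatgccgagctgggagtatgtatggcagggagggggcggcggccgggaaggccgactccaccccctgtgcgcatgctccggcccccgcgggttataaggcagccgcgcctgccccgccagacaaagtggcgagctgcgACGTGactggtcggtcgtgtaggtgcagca

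Hk2: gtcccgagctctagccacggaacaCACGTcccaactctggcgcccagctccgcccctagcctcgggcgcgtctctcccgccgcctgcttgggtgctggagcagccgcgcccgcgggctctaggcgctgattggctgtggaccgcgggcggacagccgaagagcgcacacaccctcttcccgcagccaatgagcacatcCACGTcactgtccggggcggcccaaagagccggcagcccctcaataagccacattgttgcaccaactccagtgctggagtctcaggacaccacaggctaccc

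Ldhb: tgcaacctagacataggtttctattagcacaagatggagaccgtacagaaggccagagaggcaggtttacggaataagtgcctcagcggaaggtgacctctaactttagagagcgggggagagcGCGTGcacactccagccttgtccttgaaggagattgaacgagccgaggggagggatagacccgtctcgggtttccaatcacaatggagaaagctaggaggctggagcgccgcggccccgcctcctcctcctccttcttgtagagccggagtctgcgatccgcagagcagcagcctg

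The Bnip3 window (chr7:138909457-138909756, minus strand) held 5 matches, among them a CACGTG, and 4 of them had their first base between 117 and 99 bases before the start. The Slc16a1 window (chr3:104638414-104638713, plus strand) also held 5, including a CACGTG. The Hk2 window (chr6:82774405-82774704, minus strand) held 2, with first bases 226 and 52 bases before the start. The Ldhb window (chr6:142507908-142508207, minus strand) held 1. At least 1 match stood in 43.8% of all 32851 windows. Counting for each gene the start site with most matches, 59.3% of the tested genes with a window held a match, against 30 of the 33 listed genes with a window (90.9%). Of the same tested genes, 2.91% held 5 or more matches. The 33 listed genes include Gpi1, Gapdh and Eno1, which were not tested, so the shares cover unlike sets. The list was also picked by name for glycolysis and the hypoxia response. Among listed genes that were not called, Ldha held 7 matches and Hk1 held 5. The genes whose windows are shown moved in both directions: Hk2 and Ldhb rose and Bnip3 and Slc16a1 fell in tumour-associated fibroblasts. A match describes these letters only.

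A few facts of the arrays stand beside all that follows. The control probe sets for bacterial RNA spikes averaged 10.51 ± 1.26 (SD, n = 4), 8.12 ± 0.35 and 10.96 ± 1.14 on the log2 scale in the normal, inflamed and tumour-associated groups, with normal array 4 and tumour-associated array 4 highest at 12.24 and 12.50. The difference between the 3′ and 5′ Gapdh control probe sets, which grows as RNA fragments shorten, averaged 1.84 ± 0.30, 2.15 ± 0.83 and 2.80 ± 0.66 (SD, n = 4), and was highest in inflamed array 3 (3.37) and tumour-associated array 4 (3.77). The mean level of 39 ribosomal protein genes was 11.91, 12.10 and 11.64. Shifting every array to equal ribosomal levels moved the median difference of all genes by -0.19 for inflamed against normal, 0.27 for tumour-associated against normal and 0.46 for tumour-associated against inflamed fibroblasts. Among the 32 genes, the array farthest from its group median was most often normal array 4 (16 genes), inflamed array 3 (17 genes) and tumour-associated array 1 (13 genes) or 4 (12 genes).

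The glycolysis and hypoxia genes did not move as a block. Between inflamed and normal fibroblasts 1 of the 32 genes passed the test, Hk2, which was higher. Between tumour-associated and normal fibroblasts 5 passed: Hk2, Ldhb and Epas1 were higher, and Slc16a1 and Bnip3 lower. Between tumour-associated and inflamed fibroblasts 3 passed: Epas1 was higher, and Slc2a3 and Slc16a1 lower. The test was limma's moderated test in 1 model of the 3 groups, called at a Benjamini-Hochberg adjusted p under 0.05 over all 18193 genes.

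These counts were 3.12% of the 32 genes for inflamed against normal, where 0.533% of all genes tested were called. For tumour-associated against normal they were 15.6%, where 9.65% of all genes were called, and for tumour-associated against inflamed 9.38%, where 6.71% were called. The median log2 difference of the 32 genes was 0.18 against -0.09 for all genes in inflamed against normal fibroblasts, and 18 of 32 differences were positive. In tumour-associated against normal fibroblasts it was 0.05 against 0.04, with 19 positive. In tumour-associated against inflamed fibroblasts it was -0.12 against 0.12, with 12 positive. Equal ribosomal levels shift every gene of a comparison alike, and there moved both medians together, to 0.35 for the 32 genes against 0.58 for all genes. Groups of 4 arrays did not overlap for 5 genes (15.6%) in each comparison against normal, where 15.3% and 13.8% of all genes did not overlap, and for 4 genes (12.5%) between tumour-associated and inflamed fibroblasts, where 21.1% did not. The called shares rest on 1, 5 and 3 genes. By direction, 0.258% of all genes were called higher in inflamed against normal, 4.85% higher and 4.8% lower in tumour-associated against normal, and 3.67% higher and 3.04% lower in tumour-associated against inflamed fibroblasts. An unadjusted p under 0.05 was reached by 7 (21.9%), 11 (34.4%) and 7 (21.9%) of the 32 genes in that order, against 15.6%, 22.4% and 26.5% of all genes. With equal ribosomal levels the share of all called genes that were higher moved from 48.5% to 23.1% for inflamed against normal, from 50.3% to 75.7% for tumour-associated against normal and from 54.7% to 95.1% for tumour-associated against inflamed fibroblasts.

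**Figure D1:**
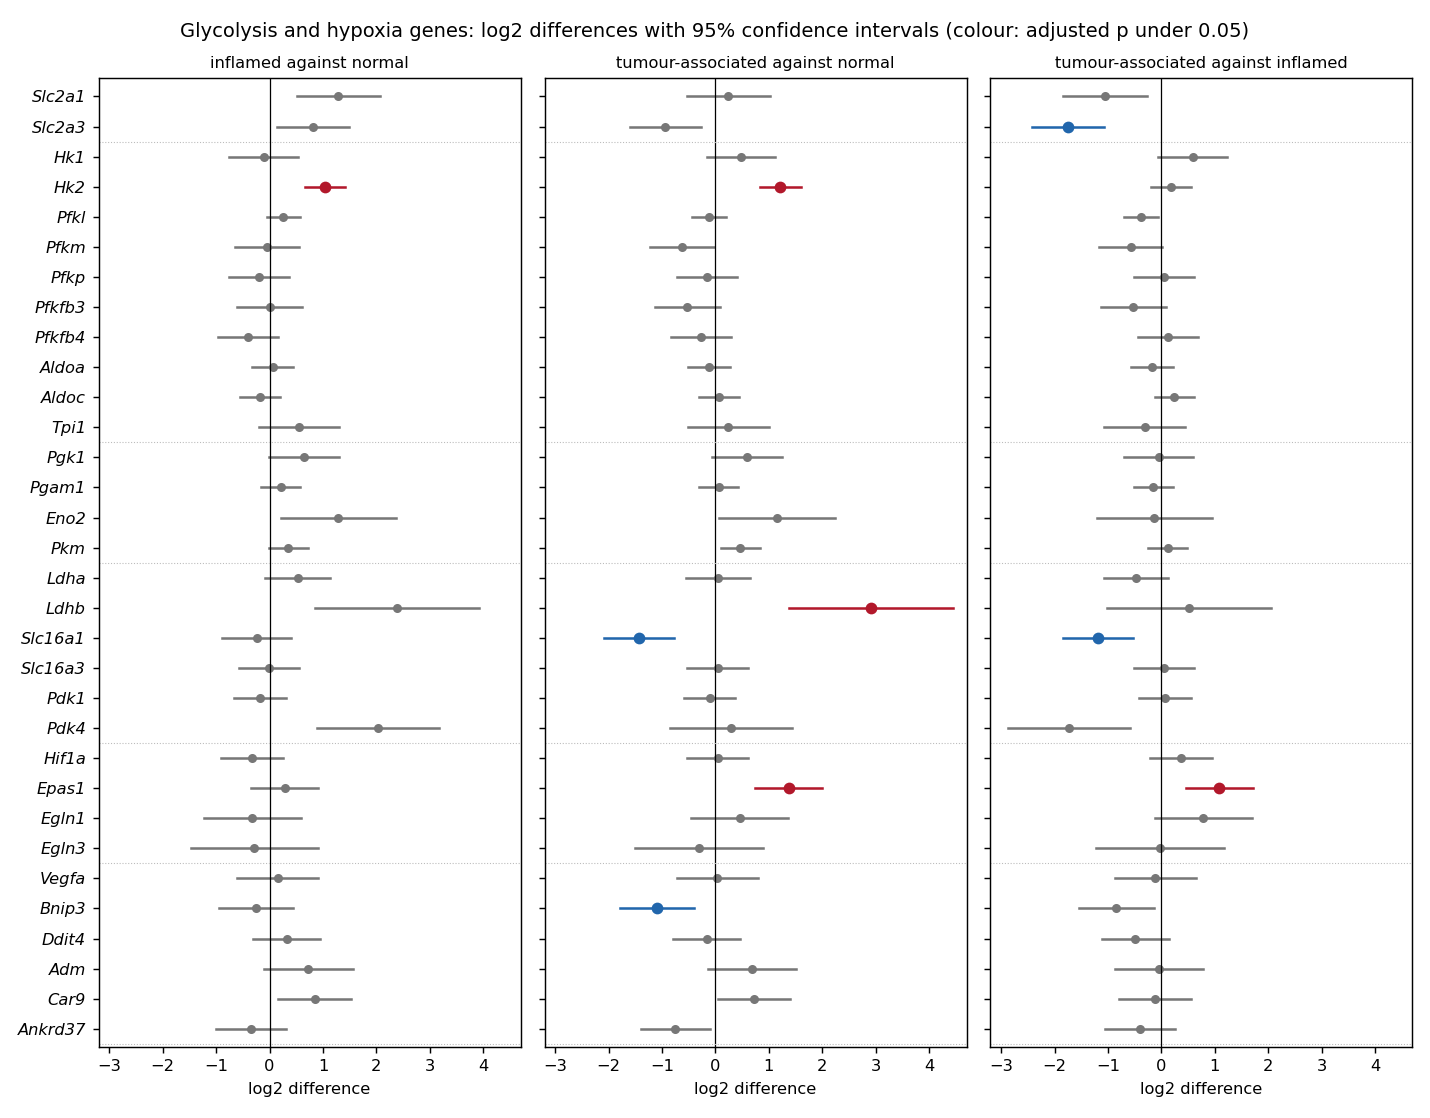
Log2 differences of the 32 measured genes in the 3 comparisons, with 95% confidence intervals from limma and dotted lines between the roles, red where a gene was higher and blue where it was lower at an adjusted p under 0.05. Hk2 lies to the right of 0 in both comparisons against normal fibroblasts, Epas1 in both with tumour-associated fibroblasts, and Slc16a1 to the left in the latter; most intervals cross 0.

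Glucose import was represented by Slc2a1 and Slc2a3, which encode the facilitative glucose transporters GLUT1 and GLUT3. Both were at their highest mean in inflamed fibroblasts, and 1 of them, Slc2a3, fell in tumour-associated against inflamed fibroblasts. For Slc2a3 the log2 values were 6.63, 5.95, 6.97 and 7.77 in the normal group, 7.61, 7.91, 7.56 and 7.46 in the inflamed group and 6.20, 5.62, 5.88 and 5.86 in the tumour-associated group, for arrays 1 to 4 of each. All tumour-associated arrays lay below all inflamed ones, while the normal arrays spread across both. The difference between tumour-associated and inflamed fibroblasts was -1.75 ± 0.31 (SE, n = 4 per group), 3.36-fold lower, with an adjusted p of 0.00597. The tumour-associated mean of 5.89 was dim, that is under the level (6.16) below which the lowest 40% of probe-set means lie. The probe set used carries a suffix for probes that can match other transcripts. Of the other 3 probe sets of Slc2a3, 1 fell by 2.11 in the same comparison (adjusted p = 0.026 over all probe sets), while the remaining differences were -0.25 and -0.11. With the probe set that carries no such suffix the difference was -0.11 (adjusted p = 0.792). That probe set was dim in all groups, at 5.756, 5.751 and 5.645. The one that differed by -0.25 was dim in all groups too, at 4.761, 5.114 and 4.869. At such levels neither can decide whether Slc2a3 fell.

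Slc2a1 did not pass the test in any comparison. Its values were 9.07, 8.89, 9.88 and 8.96 in the normal group, 11.19, 10.68, 10.56 and 9.53 in the inflamed group and 8.77, 10.01, 9.46 and 9.53 in the tumour-associated group. Inflamed arrays 1 to 3 lay above every other array, and inflamed array 4 lay among the rest. The difference of inflamed against normal fibroblasts was 1.29 (95% confidence interval 0.505 to 2.076, adjusted p = 0.13), and that of tumour-associated against inflamed was -1.05 (-1.83 to -0.26, adjusted p = 0.1). In bulk RNA of sorted cells, fewer cells of a type and less RNA per cell cannot be told apart, here or for any other gene.

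Among the 10 measured genes of upper glycolysis, from hexokinase to triose phosphate isomerase, Hk2 alone passed the test. Hk2 encodes the inducible hexokinase that traps glucose as glucose-6-phosphate. Its values were 7.91, 7.58, 7.98 and 8.03 in the normal group, 9.19, 8.77, 9.01 and 8.68 in the inflamed group and 9.42, 8.99, 9.08 and 8.87 in the tumour-associated group. Every InvEE array, inflamed or tumour-associated, lay above every normal array. Hk2 rose by 1.21 ± 0.17 (SE, n = 4 per group) in tumour-associated against normal fibroblasts, 2.32-fold (95% confidence interval 1.79 to 3.01), with an adjusted p of 0.00104, and stayed called in 22 of 22 refits under other settings. It rose by 1.03 ± 0.17, 2.05-fold, in inflamed against normal fibroblasts, with an adjusted p of 0.0304, and stayed called in 15 of 22 refits. That call was lost without inflamed array 1, 2 or 3, without normal array 1 or 2, with equal ribosomal levels and with the spike level as a covariate, where the difference still lay between 0.84 and 1.11 over all refits and adjusted p between 0.0154 and 0.251. The difference between tumour-associated and inflamed fibroblasts was 0.18 (95% confidence interval -0.20 to 0.56).

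The constitutive hexokinase Hk1 did not pass. Its means were 8.09, 7.98 and 8.56 in normal, inflamed and tumour-associated fibroblasts, and tumour-associated array 4 alone stood at 9.65 with the other 3 of its group between 8.09 and 8.35. Its other probe set differed in the opposite direction between tumour-associated and normal fibroblasts (-0.47 against 0.48).

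Phosphofructokinase, which commits sugar to glycolysis, is built from the products of Pfkl, Pfkm and Pfkp, and no isoform passed the test. Pfkm, the muscle isoform, had the largest difference of the 3 between tumour-associated and normal fibroblasts, -0.62 (95% confidence interval -1.22 to -0.03, adjusted p = 0.201). Pfkl, the liver isoform, differed by -0.38 between tumour-associated and inflamed fibroblasts (-0.70 to -0.07, adjusted p = 0.125). Pfkp, the platelet isoform, differed by -0.20, -0.16 and 0.04 in the 3 comparisons. Pfkfb3 and Pfkfb4 encode bifunctional enzymes that set fructose-2,6-bisphosphate, the activator of phosphofructokinase. Pfkfb3 was even between inflamed and normal fibroblasts, at 8.19 in both, and differed by -0.52 in tumour-associated against normal fibroblasts (95% confidence interval -1.14 to 0.09). Pfkfb4 had means of 7.88, 7.49 and 7.61.

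The aldolase gene Aldoa was among the most even of all listed genes, at 11.71 ± 0.23, 11.76 ± 0.17 and 11.59 ± 0.29 (SD, n = 4), with an interval of -0.51 to 0.27 between tumour-associated and normal fibroblasts. Aldoc, the brain aldolase, was dim in all groups. Tpi1, which encodes triose phosphate isomerase, had means of 9.53, 10.08 and 9.77, with single arrays between 8.75 and 10.38.

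**Figure D2:**
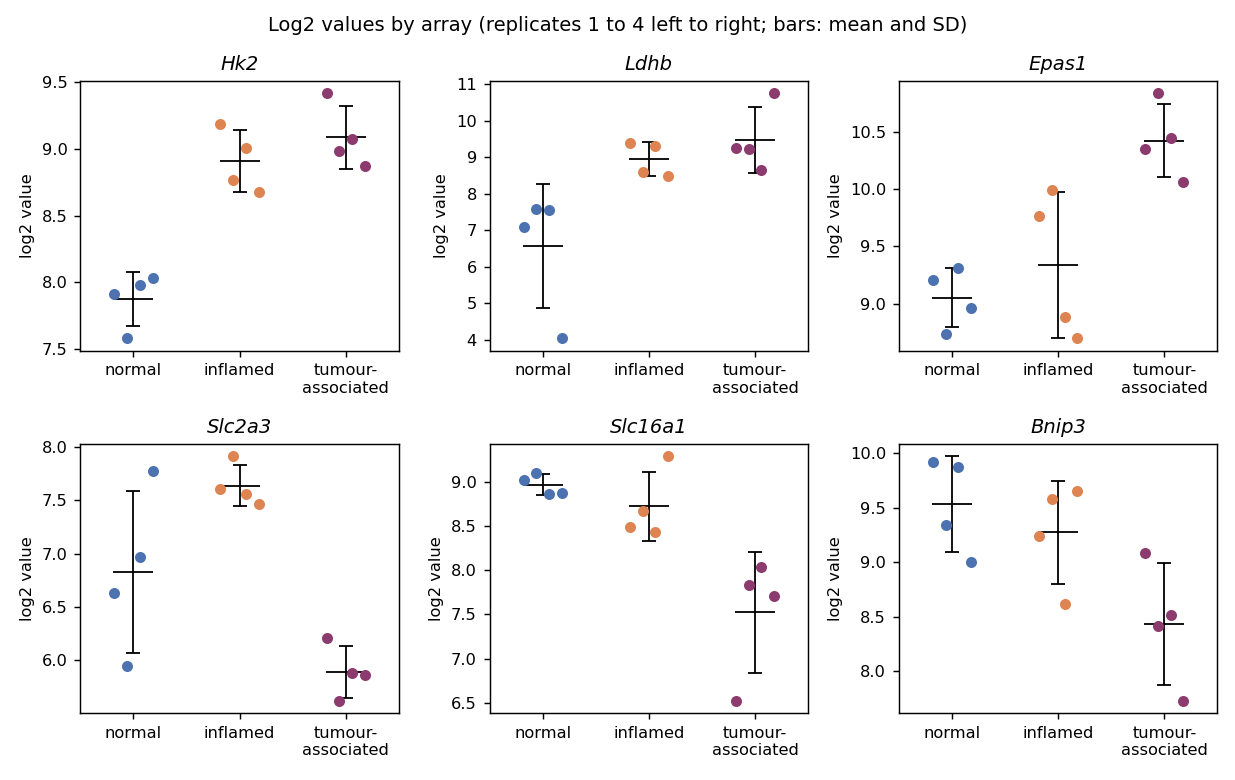
Log2 values of the 6 genes called in at least 1 comparison, 1 point per array with the group mean and SD as bars; the vertical axes differ between panels and do not start at 0. Hk2 is higher in all InvEE arrays, Epas1 in all tumour-associated arrays, and normal array 4 stands far below the other arrays for Ldhb.

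The lower part of glycolysis, from phosphoglycerate kinase to pyruvate kinase, had 4 measured genes, and none passed the test with limma, though 1 of 4 had an unadjusted p under 0.05 in inflamed and 2 of 4 in tumour-associated against normal fibroblasts, and 0 of 4 between tumour-associated and inflamed fibroblasts. All 4 differences were positive in both comparisons against normal, with medians of 0.49 and 0.53. Pkm, the pyruvate kinase of these cells, had values of 10.52, 10.52, 10.68 and 10.01 in the normal group, 10.87, 11.02, 10.63 and 10.61 in the inflamed group and 10.83, 11.05, 10.89 and 10.83 in the tumour-associated group. Its tumour-associated and normal arrays did not overlap, and the difference was 0.46 (95% confidence interval 0.10 to 0.83, adjusted p = 0.114). Eno2, the gamma enolase, varied most: its normal arrays ranged from 6.90 to 8.89 and its inflamed arrays from 7.84 to 9.86. Its difference was 1.28 for inflamed (adjusted p = 0.246) and 1.15 for tumour-associated (adjusted p = 0.188) against normal fibroblasts. Pgam1, the phosphoglycerate mutase, was even, at 10.46 ± 0.18, 10.67 ± 0.31 and 10.52 ± 0.09 (SD, n = 4).

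Pgk1, which encodes phosphoglycerate kinase and is a classical HIF target, depended on the probe set. The probe set used differed by 0.59 in tumour-associated against normal fibroblasts (adjusted p = 0.274). Its other 2 probe sets, with lower means, differed by 1.67 and 1.48 (adjusted p = 0.0045 and 0.00497 over all probe sets). Both carry the suffix for cross-matching probes.

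For Gapdh, which links upper to lower glycolysis, the 3′ control probe set stood at 12.71 ± 0.14, 12.80 ± 0.14 and 12.94 ± 0.16 (SD, n = 4), with no test.

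In both comparisons against normal fibroblasts, the largest difference of the list was that of Ldhb. It encodes the heart-type subunit of lactate dehydrogenase, which favours turning lactate back into pyruvate, and it passed the test in tumour-associated against normal fibroblasts. Its values were 7.08, 7.59, 7.56 and 4.04 in the normal group, 9.40, 8.61, 9.31 and 8.49 in the inflamed group and 9.26, 9.23, 8.66 and 10.75 in the tumour-associated group. All InvEE arrays lay above all normal ones, but normal array 4 was far below its group and tumour-associated array 4 above its own. The difference was 2.91 ± 0.71 (SE, n = 4 per group), 7.51-fold with a 95% confidence interval of 2.59 to 21.8, and adjusted p was 0.0225. Without normal array 4 it was 2.06 (adjusted p = 0.0129), without tumour-associated array 4 it was 2.48 (adjusted p = 0.0533), and without both 1.64 (adjusted p = 0.00587). The call was also lost with only these 2 groups in the fit (adjusted p = 0.0687) and with the Gapdh 3′ to 5′ difference as a covariate (adjusted p = 0.114). The other 3 probe sets gave 0.58, 1.11 and 1.29 (adjusted p = 0.226, 0.0365 and 0.0337 over all probe sets), and the mean of all probe sets 1.47. Ldhb in inflamed against normal fibroblasts differed by 2.39 (95% confidence interval 0.85 to 3.92), with an adjusted p of 0.15.

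Ldha, which encodes the muscle-type subunit that favours lactate production and is a classical HIF target, did not pass. Its means were 10.17 ± 0.18, 10.70 ± 0.29 and 10.22 ± 0.64 (SD, n = 4). All inflamed arrays (10.41 to 11.11) lay above all normal arrays (9.92 to 10.33), with a difference of 0.52 (95% confidence interval -0.08 to 1.12, adjusted p = 0.375). Between tumour-associated and normal fibroblasts the difference was 0.05 (-0.55 to 0.65).

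Of the lactate transporter genes on the list, Slc16a1 and Slc16a3, the first passed the test. Slc16a1 encodes MCT1, which moves lactate in either direction, and it fell in tumour-associated fibroblasts. Its values were 9.02, 9.10, 8.86 and 8.87 in the normal group, 8.48, 8.67, 8.43 and 9.29 in the inflamed group and 6.52, 7.84, 8.03 and 7.71 in the tumour-associated group. Every tumour-associated array lay below every normal and inflamed one. Slc16a1 fell by 1.44 ± 0.30 (SE, n = 4 per group), 2.71-fold, against normal (adjusted p = 0.0103, called in 20 of 22 refits) and by 1.19 ± 0.30, 2.29-fold, against inflamed fibroblasts (adjusted p = 0.035, called in 13 of 22). Against normal, the difference was -1.10 without tumour-associated array 1. The call against normal was lost with the Gapdh 3′ to 5′ difference as a covariate (-1.37, adjusted p = 0.0636) and with the mean of both probe sets (-0.66, adjusted p = 0.0539), the other of which was dim at 4.17, 4.09 and 4.28. The call against inflamed was lost under those settings too, without inflamed array 1, 2 or 4 and without normal array 2. It was also lost with equal ribosomal levels (-0.73, adjusted p = 0.0847) and with only these 2 groups in the fit (adjusted p = 0.0829). With the spike level as a covariate it was lost as well (-0.93, adjusted p = 0.416). Slc16a3, which encodes MCT4, the low-affinity exporter of lactate-producing cells, stood at 7.58 ± 0.34, 7.58 ± 0.17 and 7.63 ± 0.56, with an interval of -0.52 to 0.61 between tumour-associated and normal fibroblasts.

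Of the pyruvate dehydrogenase kinases on the list, neither passed. Pdk4, the starvation-induced kinase, had values of 6.58, 4.40, 6.52 and 5.21 in the normal group, 8.46, 8.06, 6.67 and 7.60 in the inflamed group and 5.04, 6.44, 6.13 and 6.29 in the tumour-associated group. The inflamed arrays lay above all others, and the normal and tumour-associated means were dim. The differences were 2.03 for inflamed against normal (95% confidence interval 0.88 to 3.17, adjusted p = 0.11) and -1.73 for tumour-associated against inflamed (-2.87 to -0.59, adjusted p = 0.0713). Pdk1, the hypoxia-induced kinase, was even at 7.59, 7.41 and 7.48.

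**Figure D3:**
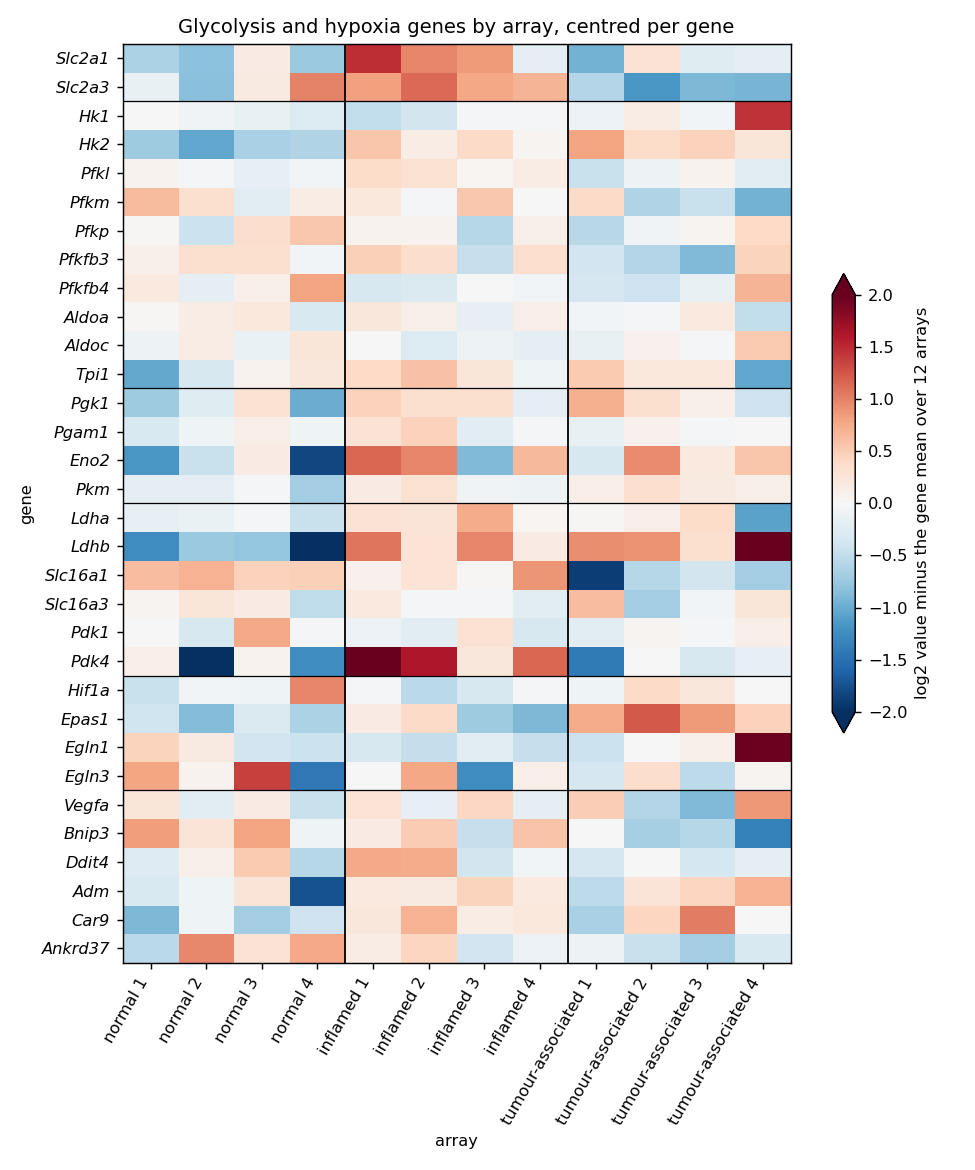
Log2 value of each of the 32 genes (rows, ordered by role with lines between roles) in each of the 12 arrays (columns), minus the gene's mean over the arrays; red is higher, blue lower, and colours end at 2 in either direction. The inflamed arrays 1 to 3 are red for Slc2a1 and all inflamed arrays for Slc2a3 and Pdk4, and the arrays numbered 4 of the normal and tumour-associated groups stand out for several genes.

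Epas1, which encodes the alpha subunit of HIF2, rose in tumour-associated fibroblasts. Hif1a, which encodes the other main alpha subunit, did not pass, and the difference between the genes was not tested. Epas1 had values of 9.20, 8.73, 9.31 and 8.96 in the normal group, 9.76, 9.99, 8.88 and 8.70 in the inflamed group and 10.34, 10.83, 10.45 and 10.06 in the tumour-associated group. Every tumour-associated array lay above all others, and the inflamed arrays split into a higher and a lower pair. Epas1 rose by 1.37 ± 0.29 (SE, n = 4 per group), 2.58-fold with a 95% confidence interval of 1.67 to 3.99, against normal fibroblasts (adjusted p = 0.0107), and was called in 22 of 22 refits, with differences from 1.23 to 1.81. Against inflamed fibroblasts it rose by 1.09 ± 0.29, 2.13-fold (adjusted p = 0.0431), a call kept in 10 of 22 refits and lost without any 1 of inflamed arrays 1, 3 and 4, of tumour-associated arrays 1, 2 and 3, or of normal arrays 1, 2 and 3. Its other probe set differed by 1.17 and 1.02 (adjusted p = 0.0488 and 0.0937 over all probe sets).

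Epas1 is also abundant in endothelial cells. Of 10 endothelial markers none was called higher and 1, Plvap, lower (-2.30) in tumour-associated against normal fibroblasts by limma. At an unadjusted p under 0.05 stood 3 of the 10. The median difference of the 10 was 0.17, with 6 of 10 positive. Kdr, Tek, Tie1 and Emcn were dim in all groups. The summed endothelial level ranged over 10.42 to 10.75 in normal, 9.53 to 10.64 in inflamed and 9.61 to 10.37 in tumour-associated arrays. The part of endothelial cells in the rise of Epas1 was not tested.

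Hif1a differed by 0.04 in tumour-associated against normal fibroblasts (95% confidence interval -0.54 to 0.62), and its 4 probe sets ranged from -1.003 to 0.85 with differing signs and no call. HIF alpha subunits are controlled mainly at the protein level, which the arrays do not measure. The oxygen sensor Egln1 had a difference of 0.46 in the same comparison, with tumour-associated array 4 at 11.71 and the others of its group between 9.32 and 9.87. Egln3, a sensor that is itself a HIF target, had means of 6.78, 6.49 and 6.47 and single arrays from 5.15 to 7.94.

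Of the 6 measured hypoxia-response targets, 1 passed the test, and it went down. Bnip3, a mitochondrial protein that promotes mitophagy and is a classical HIF target, had values of 9.92, 9.34, 9.87 and 8.997 in the normal group, 9.24, 9.58, 8.62 and 9.65 in the inflamed group and 9.08, 8.41, 8.51 and 7.72 in the tumour-associated group. The tumour-associated and normal arrays overlapped, since tumour-associated array 1 lay above normal array 4. Bnip3 fell by 1.10 ± 0.32 (SE, n = 4 per group), 2.14-fold, with an adjusted p of 0.0499, at the threshold, and stayed called in 6 of 22 refits. The refits spanned -1.32 to -0.52, the latter with the Gapdh 3′ to 5′ difference as a covariate (adjusted p = 0.347). It was -0.86 (adjusted p = 0.104) without tumour-associated array 4, and the call was also lost without tumour-associated array 2 or 3, normal array 1, 2 or 3, or inflamed array 1, 2 or 4.

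The angiogenic factor Vegfa differed by 0.04 in tumour-associated against normal fibroblasts (95% confidence interval -0.73 to 0.80), with tumour-associated arrays from 8.10 to 9.84. Its other probe set was lower by 1.20 in tumour-associated against inflamed fibroblasts (adjusted p = 0.00799 over all probe sets), where the used one differed by -0.12. Adm, the vasodilator adrenomedullin, stood at 12.17 ± 0.88, 12.89 ± 0.13 and 12.85 ± 0.53 (SD, n = 4), with normal array 4 lowest at 10.89. The probe set used for Adm carries the suffix for cross-matching probes. The other Adm probe set, without that suffix, stood at 7.795, 8.008 and 7.66. It differed by -0.135 in tumour-associated against normal fibroblasts, where the used one differed by 0.68. Ddit4, an inhibitor of mTORC1 signalling, had means of 10.16, 10.48 and 9.99. Car9, a carbonic anhydrase of the cell surface that serves as a hypoxia marker, was dim in all groups, although its inflamed arrays (5.93 to 6.47) all lay above its normal arrays (4.89 to 5.70; difference 0.84, adjusted p = 0.231). Ankrd37 stood at 7.42, 7.07 and 6.67, where tumour-associated against normal differed by -0.75 (95% confidence interval -1.40 to -0.10, adjusted p = 0.154).

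**Figure D4:**
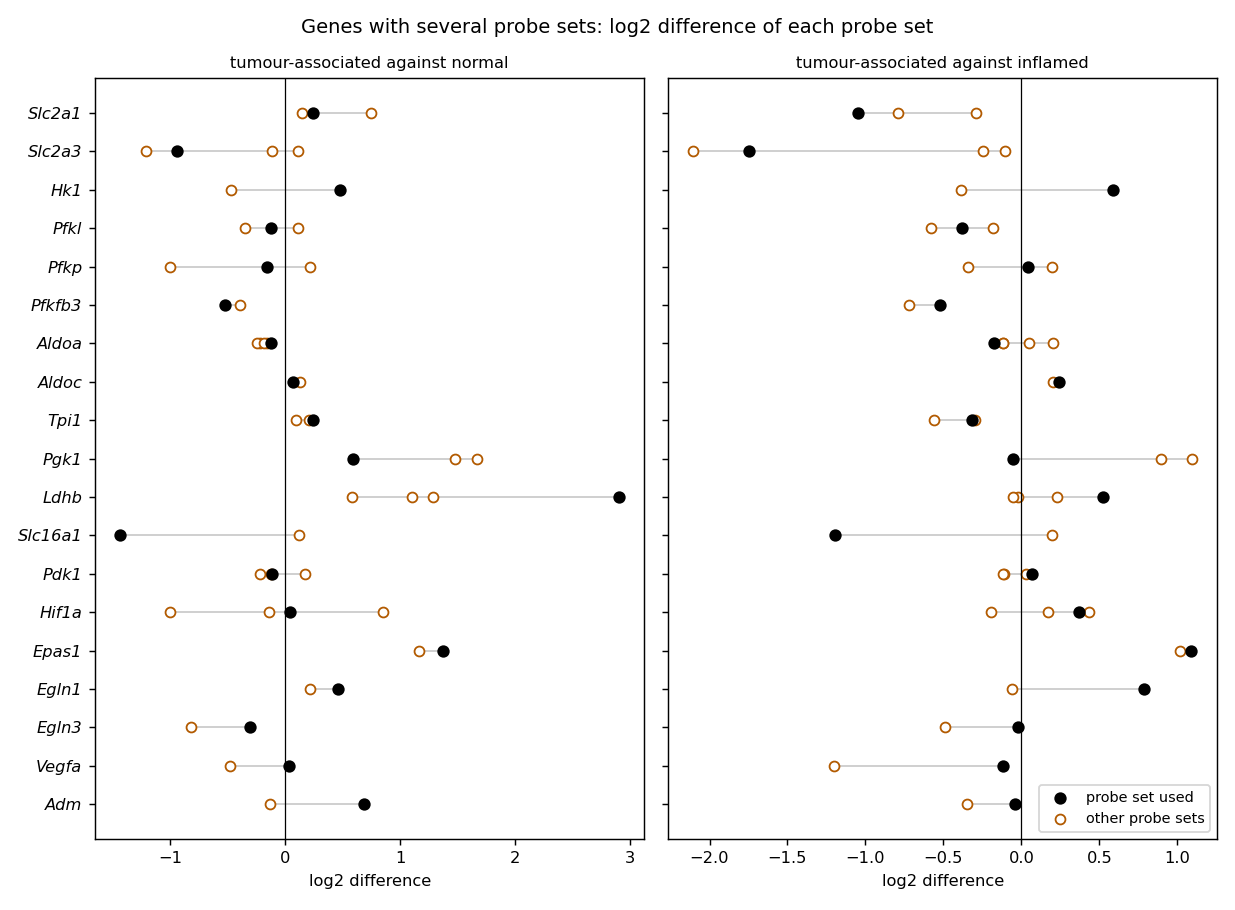
Log2 differences of every probe set for the 19 genes with more than 1, in tumour-associated against normal and against inflamed fibroblasts; filled points are the probe sets used and open points the others. All probe sets of a gene had 1 sign in 10 of the 19 genes in either comparison, and Epas1 is the called gene whose probe sets lie closest together.

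The spread within groups was wider for these genes than for genes at large. The median SD of the 32 genes was 0.41, 0.29 and 0.51 for normal, inflamed and tumour-associated fibroblasts, against 0.29, 0.20 and 0.34 over all genes. It was largest for Ldhb in normal (1.70), Eno2 in inflamed (0.92) and Egln1 in tumour-associated arrays (1.06).

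Related pathway genes outside the list were counted in the same fit. Over all genes, 0.533% were called in inflamed against normal, 4.85% higher and 4.8% lower in tumour-associated against normal, and 3.67% higher and 3.04% lower in tumour-associated against inflamed fibroblasts. The medians below are of tumour-associated against normal, where that of all genes was 0.04. Among 22 measured further glycolytic isoenzymes and side steps, 2 rose in tumour-associated fibroblasts against either other group and none was called in inflamed against normal by limma, where 1 had an unadjusted p under 0.05. The median was -0.017, with 10 of 22 differences positive. Bpgm, which makes 2,3-bisphosphoglycerate in a bypass of phosphoglycerate kinase, rose by 4.56 ± 0.27 (adjusted p = 1.69e-06) against normal and by 3.34 (adjusted p = 3.74e-05) against inflamed fibroblasts. Its means were 7.98, 9.20 and 12.55, and its other probe sets rose by 5.17 and 3.59 against normal. Bpgm is best known from red cells. Of 6 erythrocyte markers 3 were measured, with Hba-a1 and Alas2 dim in all groups. The summed level of the 3 lay between 7.53 and 7.87 in tumour-associated against 7.31 to 7.81 in normal arrays. The part of red cells in the rise of Bpgm was not tested. Pgam2, the muscle phosphoglycerate mutase, rose by 0.91 and 1.11 (adjusted p = 0.0349 and 0.019).

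Of 6 measured partners of lactate and pyruvate transport, Slc16a7, which encodes the high-affinity lactate transporter MCT2, fell by 1.78 ± 0.48 (adjusted p = 0.0348) in tumour-associated against normal fibroblasts, to a dim mean of 5.87. Bsg, the chaperone of MCT1 and MCT4, stood at 11.02, 10.66 and 11.05. The median of this list was 0.11, with 4 of 6 positive. Of the 10 genes of the pyruvate dehydrogenase complex and its regulators, 2 rose in tumour-associated against normal fibroblasts, where 4.85% of all genes were called higher, with a median of -0.013 and 5 of 10 positive. They were Pdk3, a kinase that shuts the complex off, which rose by 1.72 ± 0.25 (adjusted p = 0.00103), and Dlat, its acetyltransferase core, which rose by 0.91 (adjusted p = 0.0181; a further probe set differed by -0.23). In the tricarboxylic acid cycle, which takes up pyruvate carbon, 2 of 16 genes rose in that comparison, against the same 4.85% of all genes, and the median was 0.27 with 11 of 16 positive. They were Sucla2 (0.76) and Idh3a (1.04; adjusted p = 0.0316 and 0.036). The other 2 probe sets of Sucla2 differed by -0.49 and -0.33. Those of Idh3a differed by 0.26, 0.46 and -0.044, and none of these was called.

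Among 15 HIF pathway sensors and partners, 1 rose and 1 fell in tumour-associated against normal fibroblasts, with a median of 0.035 and 8 of 15 positive. P4ha3 rose by 4.22 ± 0.28 against normal and by 4.00 against inflamed fibroblasts (adjusted p = 3.73e-06 and 1.15e-05). P4ha3 is a prolyl hydroxylase of collagen and not an oxygen sensor of HIF. Egln2, which is such a sensor, fell by 0.55 ± 0.15 (adjusted p = 0.0421) against normal. Of 32 further hypoxia target genes, 1 was called in inflamed against normal fibroblasts, lower, 7 in tumour-associated against normal, 2 higher and 5 lower, and 3 in tumour-associated against inflamed, 1 higher and 2 lower. The shares of all genes called were 0.533%, 9.65% and 6.71%, and the median against normal was -0.059 with 16 of 32 positive. Plod2, which hydroxylates collagen lysines, rose by 2.91 (adjusted p = 0.00189) and Stc1, a secreted glycoprotein, by 1.78 (adjusted p = 0.0119) against normal. The other probe set of Stc1 was dim in all groups and differed by 0.152. Kdm3a, a histone demethylase, fell by 1.80 (adjusted p = 0.00971). The others that fell, Bhlhe41 (-1.40), Nrn1 (-2.57) and Mxi1 (-0.70), are named after their values were seen. So is Ndrg1, whose used probe set differed by 0.54 against normal and was not called. Its other probe sets differed by 1.72, 2.14, 0.59 and 0.25 (adjusted p = 0.00508, 0.0399, 0.171 and 0.415 over all probe sets). The counts rest on the used probe set of each gene alone.

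Ndufa4l2, a mitochondrial protein induced by HIF1A, fell by 1.12 in inflamed and fell by 3.20 in tumour-associated against normal fibroblasts (adjusted p = 0.0446 and 3.73e-06), from 10.90 over 9.77 to 7.69. It is also a pericyte marker. The summed level of 10 pericyte and smooth muscle markers ran from 12.46 to 12.70 (normal), 11.40 to 11.92 (inflamed) and 10.66 to 11.03 (tumour-associated). Ndufa4l2 is itself in this sum, so its own fall lowers the sum. In tumour-associated against normal 3 of 10 were lower, Ndufa4l2, Kcnj8 (-4.005) and Abcc9 (-2.12), and 1 higher, Cnn1 (1.98). The median of the 10 was -0.58, with 3 of 10 positive. The part of pericytes and smooth muscle cells in the fall of Ndufa4l2 was not tested.

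Of 16 regulators of glucose sensing, 4 fell and none rose in tumour-associated against normal fibroblasts, where 4.8% of all genes were called lower. The median was -0.44, with 4 of 16 positive. Foxo1, a transcription factor that insulin signalling restrains, fell by 1.49 ± 0.24 (adjusted p = 0.00232), and 3 of its 4 probe sets were called lower. Tsc1, a brake on mTORC1, fell by 1.05 (adjusted p = 0.011), with its other probe sets at -0.06 and -0.38. Prkaa2, a catalytic subunit of AMP-activated kinase, fell by 2.001 to a dim mean of 4.60 (adjusted p = 0.0162). Txnip, which curbs glucose uptake and is induced by glucose, fell by 1.79 ± 0.46 (adjusted p = 0.0289), and its other probe set fell by 1.75. In the serine branch, 2 of 6 genes fell in the same comparison, Shmt2 by 1.10 and Shmt1 by 0.83 (adjusted p = 0.0115 and 0.0465), both serine hydroxymethyltransferases that pass carbon from serine to folate. Against 4.8% of all genes called lower, this count rests on 2 genes, and the median was -0.16 with 1 of 6 positive. The other probe sets of Shmt1 differed by 0.063, -1.467 and -0.345.

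No gene of the pentose phosphate pathway (9 measured) or of glycogen metabolism (7 measured) was called by limma. At an unadjusted p under 0.05 stood 1 pentose phosphate gene in inflamed against normal, 0 in tumour-associated against normal and 4 in tumour-associated against inflamed fibroblasts, and 1 glycogen gene in each comparison. The medians were -0.28 with 3 of 9 and -0.18 with 2 of 7 positive. Tkt, transketolase of the pentose phosphate pathway, came nearest, at -0.92 between tumour-associated and inflamed fibroblasts (adjusted p = 0.0518).

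All 8 fibroblast markers were measured and none was dim, and their summed level ranged from 16.32 to 16.66 over all arrays. Pdgfra, the gene behind the sorted reporter, rose by 0.93 in tumour-associated against normal (adjusted p = 0.0349), and Pdgfrb by 0.55 against inflamed fibroblasts (adjusted p = 0.0211). Markers of several other cells were called between the groups. The summed level of 13 measured keratinocyte markers ran from 10.52 to 10.96 (normal), 11.69 to 12.94 (inflamed) and 10.76 to 12.78 (tumour-associated), with 2 higher in inflamed and 3 in tumour-associated against normal, and Cdh1 dim in all groups. That of 10 macrophage markers was 11.89 to 12.21, 10.37 to 11.58 and 10.58 to 11.09, with Ptprc, Adgre1, Itgam and Cd163 dim in all groups. Csf1r, at a mean of 11.77, made up most of this sum in normal arrays. It alone was called in tumour-associated against normal by limma, lower. The median difference of the 10 there was -0.19, with 4 of 10 positive and 1 at an unadjusted p under 0.05. In tumour-associated against inflamed the median was 0.25, with 7 of 10 positive. The summed level of 7 measured adipocyte markers was 10.07 to 11.04, 9.96 to 11.24 and 9.17 to 10.05, with Adipoq and Lep dim in all groups. Plin4, a lipid droplet protein, fell by 1.97 in inflamed (adjusted p = 0.0202) and fell by 2.47 in tumour-associated against normal fibroblasts (adjusted p = 0.00027). Fabp4, a fatty acid carrier, fell by 3.07 in tumour-associated against inflamed fibroblasts (adjusted p = 0.0159), from 9.77 to 6.695. In tumour-associated against normal, 1 of 4 neutrophil markers was higher and 1 of 8 dendritic cell and MHC class II markers lower. None of the T cell, mast cell, Schwann cell and melanocyte markers was called there by limma, and 0, 0, 2 and 1 had an unadjusted p under 0.05. These cells also express glycolytic genes, and their part in the differences of Hk2, Ldhb, Slc2a1, Slc2a3 and Pdk4 was not tested.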

How the data were processed

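Gene expression was measured on 12 Affymetrix arrays, 4 per group. The deposited values are log2 probe-set values, and limma is the tool that the labels name. How the authors corrected background, summarised probes and normalized arrays is not given in the sources used here. Probe sets were named through the platform annotation given with the data. Of 45101 probe sets, 34945 had 1 gene symbol, 932 several and 9160 none, and 64 controls were left out. Because the quartiles of the arrays spread by 0.284 and 0.276, over the limit of 0.1, the values were quantile-normalized.

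Each gene was represented by its probe set of highest mean, and 18193 genes entered 1 limma model (version 3.58.1, R 4.3.3) with 3 group means. A gene was called at a Benjamini-Hochberg adjusted p under 0.05, two-sided. The number of arrays limits the precision. Genes of the list are all accounted for. Of each pathway list, at most 4 called genes per comparison were named by smallest adjusted p, or 1 gene where none was called. The list, the pathway lists and the markers were chosen with earlier results of these data known. A summed marker level is the log2 of the sum of the markers' linear values. The alternatives covered normalization, scaling, probe set choice, dim genes, samples in the fit, the replicate block, covariates and leaving out each array.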

Additional observations from a re-analysis of the deposited data

Results flagged for a closer look

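Single arrays stood apart from the other 3 of their group in 6 of 96 groups of 4 tested (6.25%), where the gap to the nearest array over the group's range passed Dixon's 95% critical value. Chance gives about 1 in 20. Ldhb stood at 4.04 in normal array 4, with the others between 7.08 and 7.59. Pfkp stood at 8.56 in inflamed array 3, with the others between 9.20 and 9.25. Pfkfb3 stood at 7.55 in inflamed array 3, with the others between 8.35 and 8.49. Adm stood at 13.09 in inflamed array 3, with the others between 12.81 and 12.84. Car9 stood at 6.47 in inflamed array 2, with the others between 5.93 and 6.01. Hk1 stood at 9.65 in tumour-associated array 4, with the others between 8.09 and 8.35. Inflamed array 3 accounted for 3 of the 6.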

How the results depend on the processing

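The 9 called differences kept their direction in all 197 refits and their call in 146. Of 87 uncalled differences, 53 turned sign in at least 1 of their refits (126 of 1714 refits), none of which was called with the other sign. Without equal ribosomal levels, which shift the difference of every gene in a comparison alike, it was 48. A sign turned by that common shift says nothing of a single gene, though this scaling also changes spread within groups and calls. In 17 refits, 14 uncalled differences were called. Against normal fibroblasts, tumour-associated ones gained Pkm (0.74, equal ribosomal levels; 0.52, spike covariate), Pgk1 (1.25, mean of all probe sets), Slc2a3 (-1.03, spike covariate; -1.23 without normal array 2), Pfkm (-0.88) and Car9 (1.01) without tumour-associated array 1, and Ankrd37 (-1.05) without normal array 1. Against inflamed ones they gained Hk1, Hk2, Aldoc, Pkm, Egln1 and Pdk4 with equal ribosomal levels, where 40% of all genes were called. Slc16a1 lost its call there (-0.73, adjusted p = 0.0847 by limma). Further gains against inflamed fibroblasts were Vegfa (-1.20) with no-suffix probe sets, Pdk4 (-2.07) without inflamed array 3 and Slc2a1 (-1.37) without inflamed array 4. For inflamed against normal fibroblasts 97 genes were called, which became 62 with values as deposited, 228 with the mean of all probe sets, 57 with the replicate block, 0 with the mean spike level as covariate (limma, 2206 at an unadjusted p under 0.05) and 152 with the Gapdh 3′ to 5′ difference as a covariate. It was 219 without arrays 4 of the normal and tumour-associated groups. The listed genes called there, 1, became 0 with equal ribosomal levels or the spike covariate and 2 without both arrays 4. Their median turned from 0.182 to -0.0086 with equal ribosomal levels, where that of all genes moved from -0.094 to -0.285. With probe sets that carry no suffix the median of the listed genes was -0.0050. For tumour-associated against normal the 1756 genes became 1094 with only the compared groups in the fit and 971 with the Gapdh covariate. The 5 listed genes became 3 with no-suffix probe sets, only the compared groups or the replicate block, and 2 with the Gapdh covariate. Their median became 0.32 with equal ribosomal levels (all genes 0.315) and -0.14 (-0.135) with no-suffix probe sets. For tumour-associated against inflamed the 1221 genes became 7270 with equal ribosomal levels, 259 with the spike covariate and 778 with the Gapdh covariate. The 3 listed genes became 8 with equal ribosomal levels and 1 with only the compared groups or the spike covariate, and their median became 0.35 (all genes 0.58). Leaving out 1 array gave 0 to 249 genes for inflamed against normal: 0 without inflamed array 1 or 2 or normal array 1 (limma, 2222, 1967 and 2358 at an unadjusted p under 0.05), 13 when normal array 2 was left out, 44 for inflamed array 3, 49 and 55 for tumour-associated arrays 2 and 3, and 249 for tumour-associated array 4. It gave 578 to 1581 genes for tumour-associated against inflamed, with 578, 621 and 716 without inflamed array 1, 2 or 4. Listed genes called ranged from 0 to 1, from 3 (without tumour-associated array 4) to 7, and from 1 (without inflamed array 1 or normal array 2) to 3 in the 3 comparisons. With values as deposited, signs turned (the log2 difference follows each gene) in inflamed against normal for Pfkm 0.004 and Slc16a3 0.036, in tumour-associated against normal for Slc16a3 -0.0403, in tumour-associated against inflamed for Pfkfb4 -0.0043, Slc16a3 -0.076 and Pdk1 -0.043. With equal ribosomal levels, by that common shift, signs turned in inflamed against normal for Pfkfb3 -0.19, Aldoa -0.14 and Vegfa -0.038, in tumour-associated against normal for Pfkl 0.15, Pfkp 0.11, Aldoa 0.16, Pdk1 0.16 and Ddit4 0.11, in tumour-associated against inflamed for Pfkl 0.083, Aldoa 0.29, Tpi1 0.15, Pgk1 0.41, Pgam1 0.31, Eno2 0.33, Vegfa 0.35, Egln3 0.44, Adm 0.42, Car9 0.35 and Ankrd37 0.0599. With the mean of all probe sets, signs turned in inflamed against normal for Aldoa -0.15, in tumour-associated against normal for Hif1a -0.063 and Vegfa -0.22, in tumour-associated against inflamed for Pfkp -0.036, Pgk1 0.65 and Pdk1 -0.032. With probe sets that carry no suffix, signs turned in inflamed against normal for Slc2a3 -0.005, in tumour-associated against normal for Hif1a -0.14, Vegfa -0.48 and Adm -0.14. With the spike covariate, signs turned in inflamed against normal for Hk1 0.36, Pfkp 0.12, Pfkfb4 0.26, Aldoa -0.41, Aldoc 0.22, Pgk1 -0.033, Ldha -0.20, Hif1a 0.072, Egln1 0.35, Adm -0.023 and Ankrd37 0.039, in tumour-associated against normal for Aldoc -0.0086, Hif1a -0.036 and Vegfa -0.053, in tumour-associated against inflamed for Pfkp -0.34, Pfkfb4 -0.67, Aldoa 0.38, Aldoc -0.23, Tpi1 0.049, Pgk1 0.75, Eno2 0.64, Ldha 0.39, Hif1a -0.11, Egln1 -0.014, Egln3 1.18, Adm 0.85 and Car9 0.22. Leaving out 1 array at a time turned the sign of uncalled differences of inflamed against normal, with ranges of Pfkfb3 -0.10 to 0.21, Pfkm -0.19 to 0.091, Egln3 -0.83 to 0.10, Slc16a3 -0.17 to 0.074, Pdk1 -0.32 to 0.038 and Aldoa -0.051 to 0.14. For tumour-associated against normal the ranges were Pfkp -0.34 to 0.0087, Slc16a3 -0.16 to 0.28, Vegfa -0.26 to 0.32, Ldha -0.11 to 0.36, Hif1a -0.14 to 0.33, Aldoa -0.23 to 0.014, Aldoc -0.076 to 0.15, Egln1 -0.057 to 0.74, Tpi1 -0.014 to 0.58, Pgam1 -0.014 to 0.13, Pdk4 -0.13 to 0.61, Pdk1 -0.25 to 0.11, Egln3 -0.85 to 0.079 and Ddit4 -0.34 to 0.023. For tumour-associated against inflamed the ranges were Pgk1 -0.23 to 0.15, Eno2 -0.58 to 0.092, Egln3 -0.41 to 0.26, Car9 -0.39 to 0.17, Pfkp -0.12 to 0.21, Adm -0.21 to 0.20, Slc16a3 -0.15 to 0.29, Pdk1 -0.0085 to 0.20, Vegfa -0.41 to 0.17, Pfkfb4 -0.13 to 0.24 and Tpi1 -0.50 to 0.025. The cause of these changes was not tested. Spike levels of the inflamed arrays (7.757 to 8.596) lay below those of all normal (9.237 to 12.243) and tumour-associated arrays (9.783 to 12.497). In comparisons with inflamed fibroblasts the spike covariate therefore overlaps with the group. Its refits there cannot separate the spike level from inflammation. The Gapdh covariate and the joint removal of arrays 4 were chosen after seeing the data. Ldhb could not be refitted with no-suffix probe sets, and Aldoc and Car9 drop out when dim genes are left out. Same-numbered arrays had correlations of their deviations from -0.094 to 0.177, and 6 of 12 arrays correlated best with their own number. These values do not decide whether the numbers mark pairs. The numbers were not taken as pairs because the labels do not say that a number marks a shared animal, litter or day. With the replicate block Ldhb (adjusted p = 0.0529) and Bnip3 (adjusted p = 0.0708) lost their call against normal and Epas1 its call against inflamed fibroblasts. Means under the dim limit bound what can be said of Aldoc, Car9, Pdk4 and Slc2a3.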
